A study of Homo sapiens with 12 samples.

Results

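The subject is a set of 10 genes that FOXO transcription factors are known to switch on, FBXO32, SESN1, SESN3, BCL6, IRS2, INSR, PIK3IP1, CCNG2, TXNIP and KLF6, measured in 2 human prostate cancer cell lines in which the transcription factor FOXA1 was lowered. The members were found by gene symbol, and each of the 10 symbols matched 1 of the 60106 rows of the gene tables. FBXO32 was chosen by its measured log2 fold changes, because the change with siFOXA1 was far more positive in VCaP than in PC3. Its values in that contrast are therefore given as a description, with no test. The other 9 are textbook FOXO targets, chosen with earlier results of these data known.

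The cells were PC3 and VCaP, each given either an siRNA with no target (NSI) or one against FOXA1 (siFOXA1) and lysed after 72 hours. PC3, a line from a bone metastasis, was grown in RPMI-1640, received 20 nM siRNA and was sequenced with a stranded mRNA kit. VCaP, a line from a vertebral metastasis that carries a rearranged ERG gene, was grown in DMEM, received 40 nM siRNA and was sequenced with a total RNA kit. Both media held fetal calf serum, and each of the 4 groups had 3 libraries that no label ties to separate cultures, so a p-value measures the spread between these libraries, which may be technical. Library totals were 123140099 to 188226483 counts in PC3 and 48187047 to 59839211 in VCaP. Of 6 luminal prostate markers, all 6 were at a mean of at least 1 CPM (counts per 1000000 counts of a library, with edgeR's TMM scaling) in VCaP and 4 of 6 in PC3. The siRNA target FOXA1 fell from 268 ± 25.6 to 171 ± 11.5 CPM (± SD, n = 3 in each group) in PC3 and from 490 ± 46.9 to 80.6 ± 6.19 CPM (± SD, n = 3 in each group) in VCaP, which left 63.8% and 16.5% of the NSI level (adjusted p 0.00222 and 1.84e-07). The cell line cannot be told apart from the siRNA dose, the medium, the kit and the depth of knockdown. PC3 counts also ignored strand, whereas VCaP counts used it.

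FOXO factors are forkhead transcription factors that act at the end of the insulin pathway. Insulin or IGF binds its receptor, the receptor engages IRS proteins, PI3-kinase makes a lipid signal, and the kinases AKT and SGK then phosphorylate FOXO proteins and send them out of the nucleus. When the pathway is quiet, nuclear FOXO proteins raise genes that slow growth, limit mTORC1, handle oxidative stress and degrade protein, and also raise INSR and IRS2, which resets the pathway's own sensitivity. FOXA1 belongs to another branch of the forkhead family, and the core DNA sequence TGTTTAC is a textbook match for both branches.

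Promoter sequence was read to see which members carry that core close to a start site. RefSeq promoter windows of GRCh38.p14, from 250 bases before a start to 50 after it, matched 9 of the 10 members, with 14 windows between them because some genes have several starts. The motif TGTTTAC, searched on both strands (GTAAACA on the other), was in 2 of the 14 windows, 1 of PIK3IP1 and 1 of TXNIP, and in 3.42% of all 35116 windows of the same length. The motif CAAAACA was in 1 window (IRS2), against 4.92% of all windows. The motif CACGTG, which reads the same on both strands and is an E-box, was in 2 windows (CCNG2 and KLF6), against 7.26% of all. The GC content of the 14 windows ran from 40.0% to 78.3%. The windows below are the pair with the forkhead core and that of SESN3, the member with the largest fall, which has none of the 3 motifs. PIK3IP1 is at chr22:31292439-31292738, TXNIP at chr1:145996530-145996829 and SESN3 at chr11:95232426-95232725, all on the minus strand of GRCh38.p14 and printed 5′ to 3′ along the gene. Capitals mark the forkhead core, at bases 267 to 273 in PIK3IP1 and 127 to 133 in TXNIP, counted from 1 at the 5′ end.
PIK3IP1: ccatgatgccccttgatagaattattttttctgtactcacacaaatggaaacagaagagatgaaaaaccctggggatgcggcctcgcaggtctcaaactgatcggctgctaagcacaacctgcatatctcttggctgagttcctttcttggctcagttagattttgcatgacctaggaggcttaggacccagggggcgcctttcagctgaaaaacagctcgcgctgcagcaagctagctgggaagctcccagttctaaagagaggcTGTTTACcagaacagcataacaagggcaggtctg
TXNIP: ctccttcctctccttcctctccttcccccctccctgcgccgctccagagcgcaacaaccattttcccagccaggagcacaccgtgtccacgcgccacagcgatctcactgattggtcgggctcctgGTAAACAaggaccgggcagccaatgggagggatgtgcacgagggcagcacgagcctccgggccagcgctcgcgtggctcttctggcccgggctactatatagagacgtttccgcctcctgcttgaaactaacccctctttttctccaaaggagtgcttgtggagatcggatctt
SESN3: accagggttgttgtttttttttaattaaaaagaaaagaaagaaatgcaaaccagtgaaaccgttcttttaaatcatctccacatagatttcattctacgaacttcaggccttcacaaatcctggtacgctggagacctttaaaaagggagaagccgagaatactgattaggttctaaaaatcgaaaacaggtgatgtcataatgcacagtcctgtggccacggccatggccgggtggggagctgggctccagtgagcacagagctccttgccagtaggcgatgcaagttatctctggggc
A match of letters is a description and not a bound site. The data below show PIK3IP1 higher and TXNIP lower in VCaP siFOXA1.

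FBXO32 (ENSG00000156804.7_2, GRCh37 chromosome 8, 124510129 to 124553446, minus strand) encodes atrogin-1, the F-box subunit that selects substrates for an SCF ubiquitin ligase and is best known from muscle wasting. FBXO32 in VCaP stood at 5.30, 6.10 and 4.73 CPM with NSI and at 216, 204 and 199 CPM with siFOXA1. The groups lay far apart, with means of 5.37 ± 0.689 and 206 ± 8.81 CPM (SD, n = 3 each), 38.4 times the NSI level. These rest on 275, 306 and 272 counts with NSI and on 10875, 10268 and 10430 with siFOXA1, so counting error was small on both sides. The log2 fold change was 5.26 (SE 0.10), the 36th highest of 22925 genes tested in VCaP. FBXO32 in PC3 stood at 10.2, 10.0 and 11.1 CPM with NSI and at 12.0, 11.6 and 11.4 CPM with siFOXA1. These groups did not overlap, but the means of 10.5 ± 0.56 and 11.7 ± 0.278 CPM (SD, n = 3 each) were close, at a log2 fold change of 0.16 (SE 0.09). The VCaP change minus the PC3 change was 5.13 (SE 0.13). No exon of FBXO32 overlaps an exon of another gene in the annotation used for counting, on either strand. In bulk RNA, more cells with the transcript and more transcript per cell cannot be told apart.

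**Figure D1:**
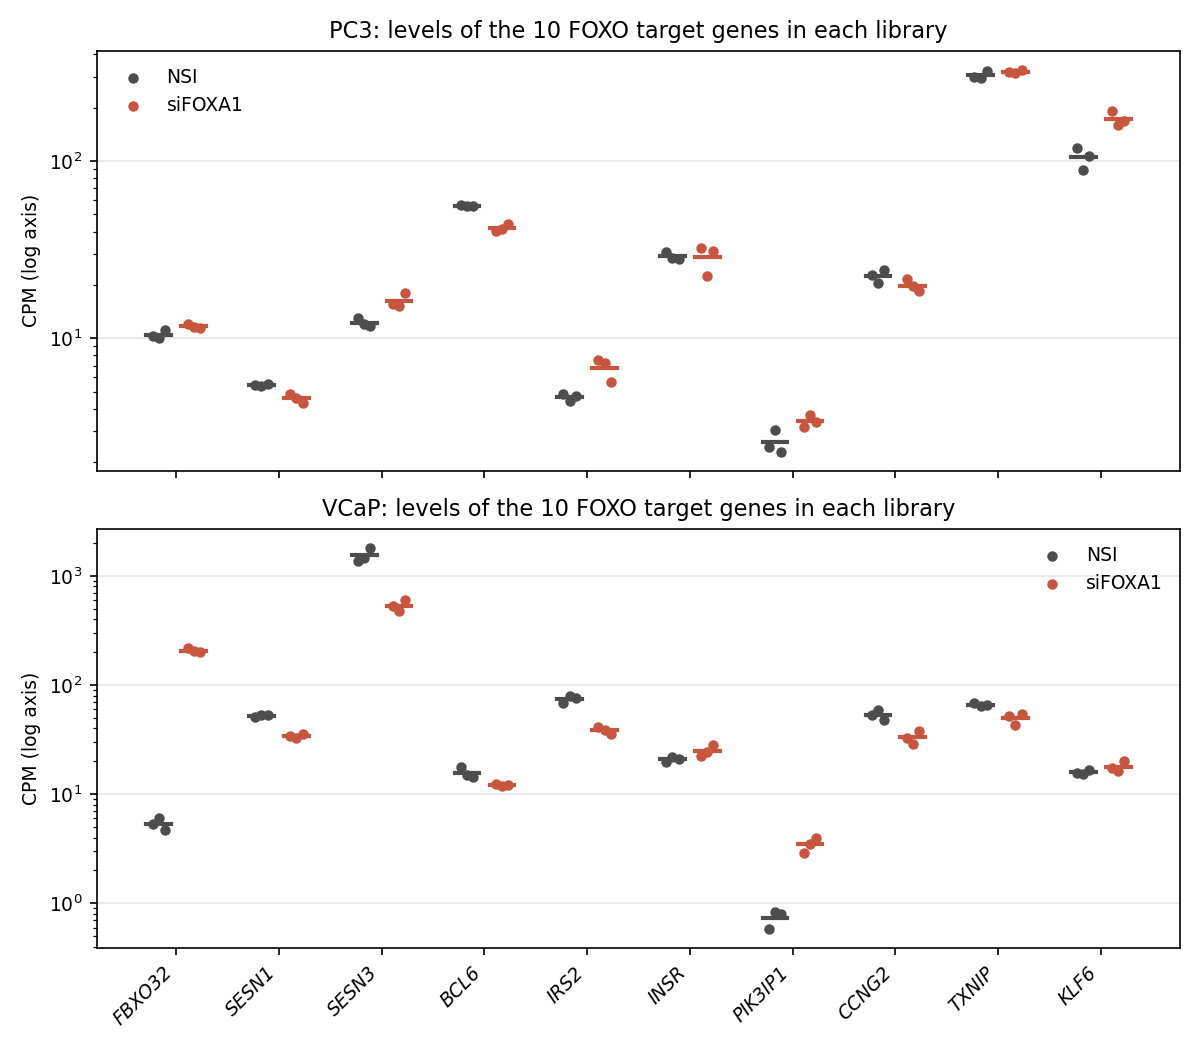
Level in each library, in CPM on a log axis, of the 10 FOXO target genes in PC3 (top) and VCaP (bottom). Points are libraries (3 NSI, grey, and 3 siFOXA1, red) and short lines are means; FBXO32 in VCaP lies at 4.73 to 6.10 CPM in NSI and at 199 to 216 CPM in siFOXA1.

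The members at the input of the pathway moved in different ways. INSR (chromosome 19, 7112266 to 7294045, minus strand) encodes the insulin receptor. INSR in PC3 stood at 30.8, 28.5 and 28.1 CPM with NSI and at 32.4, 22.5 and 31.2 CPM with siFOXA1. The siFOXA1 libraries lay on both sides of the NSI libraries, with a log2 fold change of −0.02 (SE 0.14, edgeR quasi-likelihood adjusted p 0.917) whose sign depended on the scaling and on single libraries. INSR in VCaP stood at 19.5, 22.0 and 21.0 CPM with NSI and at 22.2, 24.3 and 28.3 CPM with siFOXA1. These groups just failed to overlap, and the rise of 0.26 on the log2 scale (SE 0.09, adjusted p 0.0488) lay at the threshold. It was lost in 9 of 13 alternatives, among them the fits without NSI replicate 1 (0.20), 2 (0.29) or 3 (0.26) or without siFOXA1 replicate 2 (0.28) or 3 (0.16), at adjusted p up to 0.18. INSR had a VCaP minus PC3 difference of 0.30 (SE 0.19, adjusted p 0.291), which was not detectable at this spread.

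IRS2 (chromosome 13, 110405045 to 110438915, minus strand) encodes the adaptor that links the receptor to PI3-kinase, and it went opposite ways in the 2 lines. IRS2 in VCaP stood at 67.9, 79.2 and 75.9 CPM with NSI and at 41.5, 39.0 and 35.5 CPM with siFOXA1. Every siFOXA1 library lay below every NSI library, with means of 74.3 ± 5.81 CPM for NSI and 38.7 ± 3.00 for siFOXA1 (± SD, n = 3 in each group), which is −0.94 in log2 fold change (SE 0.08, adjusted p 1.44e-05). IRS2 in PC3 stood at 4.84, 4.43 and 4.74 CPM with NSI and at 7.53, 7.28 and 5.67 CPM with siFOXA1. Here every siFOXA1 library lay above every NSI library, and the rise was 0.55 on the log2 scale (SE 0.13, adjusted p 0.0164). In PC3 IRS2 missed the threshold without NSI replicate 3 (0.56, adjusted p 0.0558), siFOXA1 replicate 1 (0.47, 0.0805) or siFOXA1 replicate 2 (0.47, 0.0534). IRS2 had a VCaP minus PC3 difference of −1.47 (SE 0.15, adjusted p 5.94e-06) and was called in all 18 alternatives.

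PIK3IP1 (chromosome 22, 31677579 to 31688520, minus strand) encodes a membrane protein that inhibits PI3-kinase, and after FBXO32 it had the most positive change of the 10 in VCaP. There its NSI libraries held 0.578, 0.837 and 0.799 CPM and its siFOXA1 libraries 2.92, 3.52 and 3.96 CPM, from 30, 42 and 46 counts and from 147, 177 and 208 counts. The groups were well apart, with a log2 fold change of 2.23 ± 0.18 (SE), an adjusted p of 1.3e-05 and a mean 4.70 times that of NSI. PIK3IP1 in PC3 stood at 2.42, 3.05 and 2.29 CPM with NSI and at 3.14, 3.70 and 3.38 CPM with siFOXA1. The PC3 groups did not overlap either, but the log2 fold change of 0.40 (SE 0.15) missed the threshold at an adjusted p of 0.0765. It passed with library size alone as scaling (0.46, adjusted p 0.0449) and without NSI replicate 2, the highest of the NSI libraries (0.53, adjusted p 0.0183). PIK3IP1 had a VCaP minus PC3 difference of 1.85 (SE 0.24, adjusted p 5.77e-05), called in all 18 alternatives.

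Both sestrin members fell in VCaP. Sestrins are stress-induced proteins that bind the GATOR2 complex and thereby restrain mTORC1. SESN3 (chromosome 11, 94898677 to 94965705, minus strand) was the most abundant of the 10 in VCaP. Its NSI libraries held 1376, 1454 and 1807 CPM and its siFOXA1 libraries 524, 476 and 596 CPM. The groups were far apart, with means of 1546 ± 229 CPM for NSI and 532 ± 60.4 for siFOXA1 (± SD, n = 3 in each group), a ratio of 0.344. On the log2 scale SESN3 fell by 1.54 (SE 0.12, adjusted p 1.12e-05). SESN3 in PC3 stood at 13.0, 12.0 and 11.7 CPM with NSI and at 15.6, 15.1 and 17.9 CPM with siFOXA1. All siFOXA1 libraries of PC3 were higher than all NSI libraries, a rise of 0.41 on the log2 scale (SE 0.10, adjusted p 0.0192). That call was lost without NSI replicate 3 (0.37, adjusted p 0.0819), siFOXA1 replicate 1 (0.43, 0.0585) or siFOXA1 replicate 3 (0.30, 0.101). SESN3 had a VCaP minus PC3 difference of −1.93 (SE 0.18, adjusted p 1.8e-06), called in all 18 alternatives. Exons of SESN3 share 0.909% of their bases with a gene on the other strand.

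SESN1 (chromosome 6, 109307640 to 109416022, minus strand), also a target of p53, was at 50.9, 52.7 and 53.6 CPM in VCaP with NSI and at 33.9, 32.8 and 35.8 CPM with siFOXA1. Replicates were tight and the groups clearly apart, and SESN1 fell by 0.62 on the log2 scale (SE 0.06, adjusted p 2.6e-05). SESN1 in PC3 stood at 5.43, 5.40 and 5.53 CPM with NSI and at 4.84, 4.61 and 4.29 CPM with siFOXA1. All PC3 siFOXA1 libraries were lower, but the log2 fold change of −0.25 (SE 0.10) had an adjusted p of 0.104. It passed in the fit of all 12 libraries (−0.24, adjusted p 0.0309). SESN1 had a VCaP minus PC3 difference of −0.34 (SE 0.11, adjusted p 0.0342). It was lost in 7 of 18 alternatives, namely without a low-count filter (−0.36, adjusted p 0.117), without PC3 siFOXA1 replicate 1 (−0.35, 0.0558), and without VCaP NSI replicate 1 (−0.37, 0.0521), 2 (−0.35, 0.0705) or 3 (−0.32, 0.0787) or VCaP siFOXA1 replicate 1 (−0.34, 0.0809) or 2 (−0.31, 0.104). Exons of SESN1 share 6.16% of their bases with a gene on the other strand. Reads of such a pair could not be told apart in the PC3 counts, which ignored strand. The share on the other strand was 4.22% for BCL6, 1.41% for IRS2 and 1.31% for PIK3IP1, with the same limit in PC3.

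Among the members that act on growth and transcription, CCNG2 and BCL6 fell in VCaP and KLF6 rose in PC3. CCNG2 (chromosome 4, 78078304 to 78091212, plus strand) encodes cyclin G2, an unusual cyclin that is linked to cell cycle arrest. CCNG2 in VCaP stood at 52.8, 58.9 and 47.3 CPM with NSI and at 33.0, 28.5 and 37.9 CPM with siFOXA1. Each CCNG2 value with siFOXA1 was below each with NSI, and the log2 fold change was −0.68 (SE 0.11, adjusted p 0.000858). CCNG2 in PC3 stood at 22.7, 20.5 and 24.2 CPM with NSI and at 21.5, 19.6 and 18.4 CPM with siFOXA1. Those groups overlapped, at a log2 fold change of −0.18 ± 0.10 (SE) and an adjusted p of 0.224. CCNG2 had a VCaP minus PC3 difference of −0.48 (SE 0.16, adjusted p 0.0467), at the edge of the threshold. It was lost without PC3 NSI replicate 1 (−0.55, adjusted p 0.0506) or 2 (−0.45, 0.0578), PC3 siFOXA1 replicate 1 (−0.46, 0.0911), VCaP NSI replicate 1 (−0.49, 0.082) or 2 (−0.40, 0.129), or VCaP siFOXA1 replicate 1 (−0.48, 0.0899) or 2 (−0.38, 0.131).

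BCL6 (chromosome 3, 187439165 to 187463515, minus strand) encodes a zinc finger repressor known from germinal centre B cells and is the member that fell in both lines. BCL6 in PC3 stood at 56.5, 55.9 and 55.4 CPM with NSI and at 40.3, 41.3 and 44.0 CPM with siFOXA1. The groups were clearly apart, at −0.42 on the log2 scale (SE 0.08, adjusted p 0.00572). BCL6 in VCaP stood at 17.7, 15.0 and 14.4 CPM with NSI and at 12.4, 12.0 and 12.2 CPM with siFOXA1. These groups did not overlap either, at −0.36 (SE 0.09, adjusted p 0.00904). Both calls held in all 13 alternatives for each line. BCL6 had a VCaP minus PC3 difference of 0.08 (SE 0.12, adjusted p 0.732), and it was −0.02 with library size alone as scaling and without PC3 siFOXA1 replicate 2.

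KLF6 (chromosome 10, 3818188 to 3827473, minus strand) encodes a Krüppel-like factor studied as a growth suppressor in the prostate. KLF6 in PC3 stood at 119, 89.2 and 107 CPM with NSI and at 191, 159.6 and 169 CPM with siFOXA1. The groups did not overlap, and the mean rose from 105 ± 15.0 to 173 ± 16.3 CPM (± SD, n = 3 in each group), which is 0.72 in log2 fold change (SE 0.12, adjusted p 0.00365). KLF6 in VCaP stood at 15.6, 15.5 and 16.6 CPM with NSI and at 17.5, 16.2 and 20.0 CPM with siFOXA1. There the groups overlapped, at a log2 fold change of 0.17 ± 0.09 (SE) and an adjusted p of 0.138. KLF6 had a VCaP minus PC3 difference of −0.53 (SE 0.17, adjusted p 0.0362). It was lost without PC3 siFOXA1 replicate 1 (−0.50, adjusted p 0.0754), VCaP NSI replicate 1 (−0.55, 0.0612), 2 (−0.56, 0.0569) or 3 (−0.49, 0.0865), or VCaP siFOXA1 replicate 1 (−0.51, 0.0794) or 2 (−0.46, 0.103).

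TXNIP (chromosome 1, 145438469 to 145442635, plus strand on GRCh37) encodes an arrestin-like protein that binds thioredoxin and curbs glucose uptake. In PC3 it was the most abundant member, with 299, 293 and 321 CPM under NSI and 317, 316 and 327 CPM under siFOXA1. The PC3 groups overlapped, with a log2 fold change of 0.07 ± 0.08 (SE) and an adjusted p of 0.525. TXNIP in VCaP stood at 67.7, 63.7 and 65.1 CPM with NSI and at 51.7, 43.2 and 53.7 CPM with siFOXA1. All VCaP siFOXA1 libraries lay below NSI, and TXNIP fell by 0.40 on the log2 scale (SE 0.08, adjusted p 0.0031). TXNIP had a VCaP minus PC3 difference of −0.46 (SE 0.13, adjusted p 0.0187). For TXNIP the call was lost when VCaP NSI replicate 1 (−0.44, adjusted p 0.0512) or siFOXA1 replicate 2 of that line (−0.37, 0.0616) was left out.

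All 10 members passed the low-count filter in both lines. Of the 9 with a test, 8 were called in VCaP, where 45.8% of all 22925 genes tested were called. These were 6 that fell and 2 that rose, where 23.3% of all genes fell and 22.5% rose. In PC3, 4 of the 9 were called, where 27.0% of 26435 genes tested were called. KLF6, IRS2 and SESN3 rose and BCL6 fell there, where 15.0% of all genes rose and 12.1% fell. The median log2 fold change of the 9 was −0.40 in VCaP and 0.07 in PC3, beside 0.02 over all genes tested in each line. Groups did not overlap for 8 of these 9 members in VCaP and for 6 of 9 in PC3, against 55.9% and 44.4% of all genes tested. IRS2 and SESN3 were called in both lines in opposite directions, as were 5.04% of the 19261 genes tested in both. BCL6 was called in both in the same direction, as were 10.7%. The members' count in PC3 was 2, 1 higher and 1 lower, both without NSI replicate 3 and without siFOXA1 replicate 1. The share of counts from mitochondrial genes, which can vary with RNA quality, was 3.02% to 3.29% in VCaP NSI and 4.04% to 4.69% in VCaP siFOXA1, and its part in the VCaP values was not tested. Of 3 leukocyte markers, 1 (CD14) reached a mean of 1 CPM in VCaP siFOXA1 and 0 in the other groups. Their summed level was 0.73 to 0.905 CPM in VCaP NSI and 2.29 to 3.00 CPM in VCaP siFOXA1. That VCaP rise was in CD14 (mean 0.698 to 2.72 CPM), while PTPRC went from 0.113 to 0.0196 and CD3E from 0.0131 to 0.0132. In PC3 the leukocyte sum was 0.21 to 0.231 CPM in NSI and 0.418 to 0.461 CPM in siFOXA1. The sum of 3 fibroblast markers was 25.0 to 29.4 CPM in PC3 NSI and 37.6 to 41.4 CPM in PC3 siFOXA1. The sum of 2 endothelial markers was 3.93 to 4.56 CPM in VCaP NSI and 1.69 to 2.02 CPM in VCaP siFOXA1. That of the 6 luminal prostate markers was 4205 to 4431 CPM in VCaP NSI and 3406 to 3885 CPM in VCaP siFOXA1, and 696 to 827 CPM in PC3 NSI and 625 to 657 CPM in PC3 siFOXA1. The part of these markers in the members' values was not tested.

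**Figure D2:**
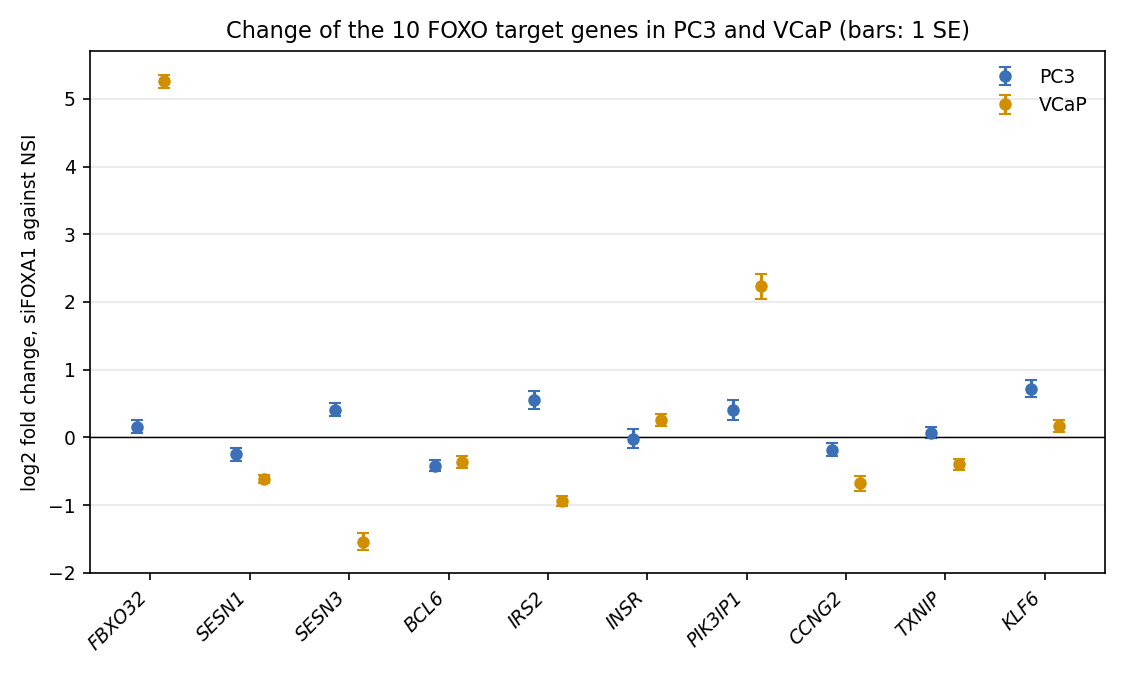
Log2 fold change of siFOXA1 against NSI (y axis) for each of the 10 genes, in PC3 (blue) and VCaP (orange), with bars of 1 standard error. FBXO32 (5.26) and PIK3IP1 (2.23) lie above the others in VCaP, and SESN3 (−1.54) and IRS2 (−0.94) lie lowest there while both are above 0 in PC3.

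The test of the difference between the lines called 7 of the 9 members, 6 more negative in VCaP and PIK3IP1 more positive. Over all 30425 genes in that fit 22.2% were called, 11.0% were more negative and 11.3% more positive, 3333 and 3427 genes, and with library size alone as scaling these were 3880 and 2643. SESN3, IRS2 and PIK3IP1 were called in all 18 alternatives, whereas the smaller differences of SESN1, CCNG2, TXNIP and KLF6 depended on single libraries as given above. The count of members was 4 without PC3 siFOXA1 replicate 1, 3 without VCaP NSI replicate 1, 4 without VCaP NSI replicate 2, 4 without VCaP siFOXA1 replicate 1 and 3 without VCaP siFOXA1 replicate 2.

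The order of the members by level per length, CPM per kilobase of exon, was also different between the lines. In VCaP NSI, SESN3 stood first at 151.1 ± 22.4 CPM per kilobase (SD, n = 3), followed by TXNIP at 20.5 ± 0.632 and SESN1 at 13.3 ± 0.357. IRS2 at 9.13 ± 0.714 and CCNG2 at 8.42 ± 0.925 overlapped in range. BCL6, KLF6, INSR, FBXO32 and PIK3IP1 followed, from 3.87 down to 0.268, with no overlap between neighbours. In VCaP siFOXA1, FBXO32 stood second at 30.6 ± 1.31, above TXNIP at 15.5 ± 1.74 and below SESN3 at 52.0 ± 5.91, so it moved from ninth place to the second. In PC3 NSI, TXNIP stood first at 95.1 ± 4.65, followed by KLF6 at 17.6 ± 2.51 and BCL6 at 13.8 ± 0.127. The other 7 were at 3.56 or less, in the order CCNG2, INSR, FBXO32, SESN1, SESN3, PIK3IP1 and IRS2, and only CCNG2 and INSR overlapped in range. The same 3 genes led in PC3 siFOXA1. Levels between the lines hold the difference in kit as well as in cells. Summed over the 9 members other than FBXO32, the level was 1669 to 2101 CPM in VCaP NSI and 676 to 824 CPM in VCaP siFOXA1, most of it SESN3, and 512 to 560.2 CPM in PC3 NSI and 589 to 634 CPM in PC3 siFOXA1.

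The FOXO factors themselves were the next group. FOXO1, the family member most tied to insulin signalling, was at 1.96, 1.95 and 1.67 CPM in VCaP with NSI and at 6.83, 6.58 and 6.47 CPM with siFOXA1. The groups were well apart, a rise of 1.83 on the log2 scale (SE 0.11, adjusted p 2e-06). In PC3 FOXO1 had a log2 fold change of 0.35 ± 0.12 (SE) at an adjusted p of 0.0629, which passed in 4 of 13 alternatives, among them the fit without siFOXA1 replicate 2 (0.41, adjusted p 0.0334), and the difference between the lines was 1.51 (adjusted p 1.76e-05). FOXO3 was the most abundant of the 4 by CPM in both lines. In PC3 it fell (68.8 ± 8.63 CPM with NSI, 45.8 ± 6.62 with siFOXA1, ± SD, n = 3 in each group), which is −0.59 in log2 fold change (SE 0.13, adjusted p 0.0131), a call that was lost without NSI replicate 3 (−0.56, adjusted p 0.0516). In VCaP FOXO3 was at −0.08 (SE 0.07, adjusted p 0.37), and the difference of 0.53 between the lines (adjusted p 0.0351) was lost in 11 of 18 alternatives, with values of 0.33 to 0.56. FOXO4 was at −0.21 in PC3 (SE 0.09, adjusted p 0.12) and at 0.27 in VCaP (SE 0.11, adjusted p 0.0624), and the difference of 0.49 between the lines (adjusted p 0.0185) was lost in 7 of 18 alternatives, with values of 0.36 to 0.45. FOXO6 was rare, with 22, 15 and 22 counts in VCaP NSI and 83, 86 and 58 in VCaP siFOXA1, a rise of 2.00 (SE 0.24, adjusted p 0.000122). In PC3 it had 22 counts or fewer in every library, at a log2 fold change of 0.88 ± 0.50 (SE) and an adjusted p of 0.221.

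Genes of the insulin and PI3K-AKT input were called in both directions. Of 24 listed genes, all tested, 7 rose and 7 fell in VCaP, and 3 rose and 1 fell in PC3, with medians of −0.03 and 0.04. Over all genes 45.8% were called in VCaP and 27.0% in PC3. AKT1, a kinase that inactivates FOXO proteins, was at 162, 149 and 166 CPM in VCaP with NSI and at 54.3, 51.3 and 44.2 CPM with siFOXA1. It fell to 0.314 of the NSI level, which is −1.67 in log2 fold change (SE 0.09, adjusted p 8.59e-07), and was at −0.08 in PC3 (SE 0.08, adjusted p 0.491), a tested difference of −1.57 (adjusted p 4.12e-07). The related kinases SGK1 and SGK2, which also phosphorylate FOXO proteins, rose in both lines. SGK1 went from 2.15 ± 0.282 to 13.1 ± 0.683 CPM in VCaP (SD, n = 3 each) and from 5.42 ± 0.742 to 13.6 ± 1.26 CPM in PC3 (SD, n = 3 each). On the log2 scale SGK1 rose by 2.60 in VCaP (SE 0.11, adjusted p 3.83e-07) and by 1.32 in PC3 (SE 0.13, adjusted p 0.000227). SGK2 changed by 3.09 in VCaP (SE 0.17, adjusted p 1.18e-06) and by 0.90 in PC3 (SE 0.16, adjusted p 0.00503). PIK3R1, a regulatory subunit of PI3-kinase, rose in VCaP by 1.06 (SE 0.07, adjusted p 4.87e-06). PHLPP1, a phosphatase of AKT, fell there by 0.81 on the log2 scale (SE 0.06, adjusted p 5.18e-06).

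Smaller calls in that list rested on single libraries. AKT2 was at −0.28 in PC3 (adjusted p 0.0313) and lost its call without NSI replicate 1 (−0.29) or 3 (−0.25) or siFOXA1 replicate 1 (−0.26) or 3 (−0.31), and under upper-quartile (−0.25) or library-size scaling (−0.22). IRS1, the sister adaptor of IRS2, was at −0.33 in VCaP (SE 0.12, adjusted p 0.0454) and lost its call without NSI replicate 1 (−0.38) or 3 (−0.21) or siFOXA1 replicate 2 (−0.27) or 3 (−0.32), and under upper-quartile scaling (−0.28).

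**Figure D3:**
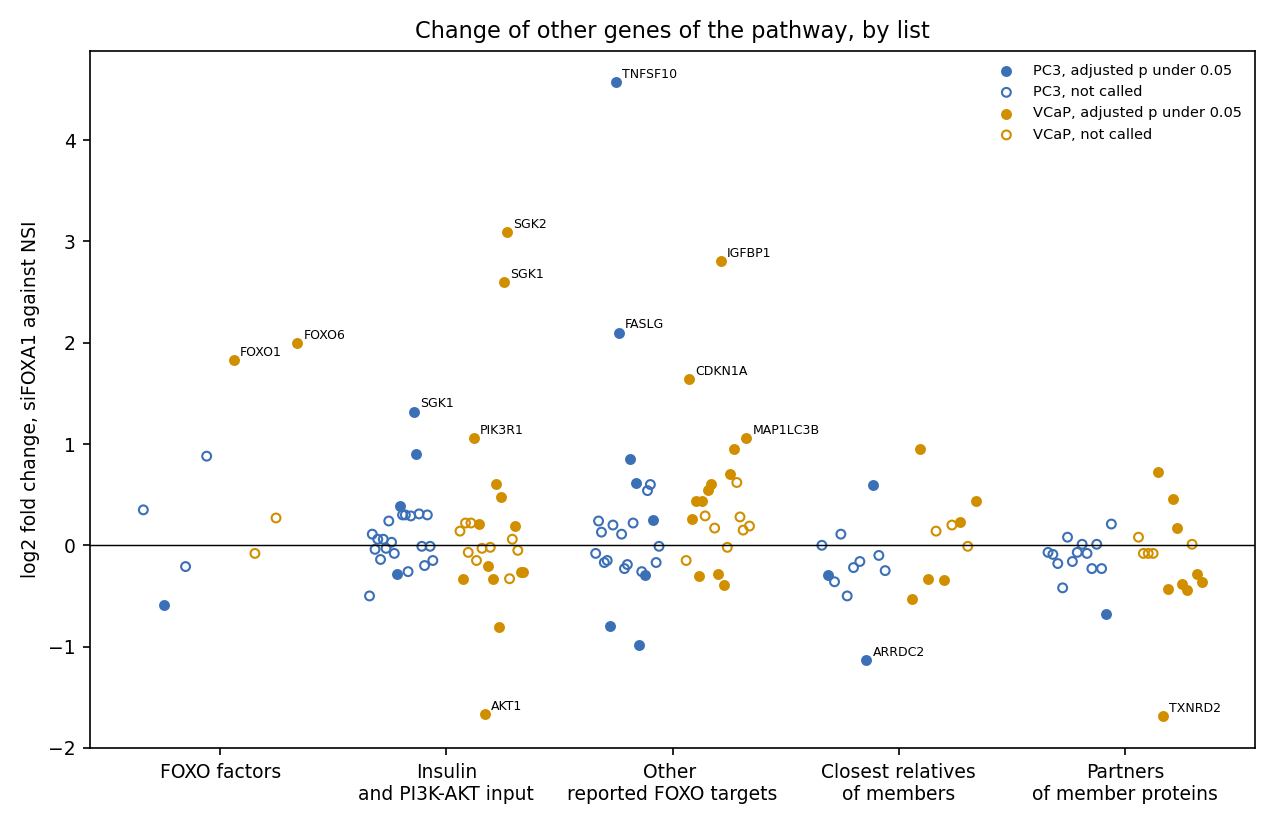
Log2 fold change of siFOXA1 against NSI (y axis) for every tested gene of the 5 other lists, PC3 in blue and VCaP in orange; filled points passed an adjusted p of 0.05, open points did not, and called genes past 1 in either direction are named. SGK1 and SGK2 lie above 2 in VCaP, AKT1 lies at −1.67, and TNFSF10 stands at 4.57 in PC3.

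Other genes reported as FOXO targets were counted beside the members. Of 26 listed, 21 passed the low-count filter in VCaP, where 10 rose and 3 fell, beside 22.5% and 23.3% of all genes. In PC3 23 passed, of which 5 rose and 3 fell, beside 15.0% and 12.1% of all genes. Their median log2 fold changes were 0.29 and 0.11. CDKN1A, the gene of the cell cycle inhibitor p21, was at 42.9, 29.8 and 28.6 CPM in VCaP with NSI and at 116, 111 and 87.3 CPM with siFOXA1. The groups were apart, a rise of 1.64 on the log2 scale (SE 0.16, adjusted p 3.92e-05). IGFBP1, an IGF-binding protein, rose in VCaP from 4, 9 and 6 counts to 39, 38 and 53, which is 2.81 in log2 fold change (SE 0.30, adjusted p 6.52e-05). MAP1LC3B, an autophagy gene, rose there by 1.06 (SE 0.26, adjusted p 0.00788) from a low level of 1.57 CPM, against 179 CPM in PC3 NSI. The falls in VCaP were in CITED2 (−0.39), PRDX3 (−0.28) and BCL2L11 (−0.30). The BCL2L11 call (adjusted p 0.0464) was lost without any 1 of NSI replicates 1, 2 and 3 and siFOXA1 replicates 1 and 2, at −0.34 to −0.21.

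In PC3 the largest rise in that list was in TNFSF10, which encodes the death ligand TRAIL. Its NSI libraries held 1.50, 1.47 and 1.45 CPM and its siFOXA1 libraries 37.3, 35.0 and 32.3 CPM. The log2 fold change was 4.57 (SE 0.11, adjusted p 5.01e-07), against 0.55 in VCaP (SE 0.06, adjusted p 6.77e-05), a tested difference of −3.99 (adjusted p 1.88e-11). PDK4, a kinase that limits entry of pyruvate into mitochondria, rose in PC3 by 0.85 (SE 0.10, adjusted p 0.000659). CITED2, a transcriptional coregulator, rose in PC3 by 0.62 (adjusted p 0.00442), opposite to VCaP, a difference of −0.98 (adjusted p 7.27e-05). FASLG had 4, 0 and 5 counts in PC3 NSI and 11, 11 and 16 in PC3 siFOXA1, and its call (adjusted p 0.0473) was lost without any single library (1.60 to 2.51). MXI1, a MYC antagonist, fell in PC3 by 0.98 on the log2 scale (SE 0.11, adjusted p 0.000552). BBC3, a BH3-only death gene, was at −0.80 in PC3 (adjusted p 0.0299), a call lost without NSI replicate 2 (−0.57) or 3 (−0.83) or siFOXA1 replicate 1 (−0.80) or 3 (−0.69).

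The closest relatives of the members did not follow them in every case. Of 12 relatives, 9 were tested in VCaP, where 3 rose and 3 fell, and 11 in PC3, where 1 rose and 2 fell, beside 45.8% and 27.0% of all genes called in either direction. FBXO25, the nearest relative of FBXO32, fell in VCaP (129 ± 1.39 CPM with NSI, 88.9 ± 0.886 with siFOXA1, ± SD, n = 3 in each group), which is −0.53 in log2 fold change (SE 0.05, adjusted p 4.51e-05). SESN2, the sestrin outside the set, rose in VCaP by 0.95 (SE 0.11, adjusted p 0.000109), where SESN1 and SESN3 fell. In PC3 SESN2 was at −0.29 (adjusted p 0.0271), a call lost without NSI replicate 1 (−0.32) or 3 (−0.29) or siFOXA1 replicate 1 (−0.26) or 3 (−0.34), and the difference between the lines was 1.26 (adjusted p 4.77e-06). CCNG1, the sister of CCNG2, fell in VCaP by 0.34 on the log2 scale (SE 0.06, adjusted p 0.000859). KLF7, the nearest relative of KLF6, rose there by 0.44 (SE 0.06, adjusted p 0.000416). Among arrestin-like relatives of TXNIP, ARRDC2 fell in PC3 by 1.13 on the log2 scale (SE 0.09, adjusted p 5.08e-05) and ARRDC3 rose there by 0.60 (SE 0.11, adjusted p 0.00431). ARRDC3 also rose in VCaP by 0.23 (adjusted p 0.0234), a call lost without NSI replicate 1 (0.18) or siFOXA1 replicate 1 (0.19) or 3 (0.19). The remaining relatives, IGF1R, INSRR, IRS4, BCL6B and ARRDC4, were not called or not tested in either line.

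The genes nearest to FBXO32 in pattern were found by the root mean square difference of log2 CPM, each gene centred on its own mean, over all 12 libraries. Over the 12917 filtered genes whose mean reached 5 CPM, the nearest were SYT12 (difference 0.652), ADAM23 (0.875), ATP1B1 (0.884), SPOCK3 (0.925) and ITGB8 (0.931). SYT12 was at 1.43, 0.937 and 1.20 CPM in VCaP with NSI and at 32.1, 38.0 and 26.9 CPM with siFOXA1, and at 3.07 and 5.76 CPM on average in PC3 NSI and siFOXA1. The log2 fold changes of the 5 ran from 2.69 to 4.76 in VCaP and from 0.14 to 0.90 in PC3, against 5.26 and 0.16 for FBXO32. They were chosen for this pattern, so these values are a description with no test.

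**Figure D4:**
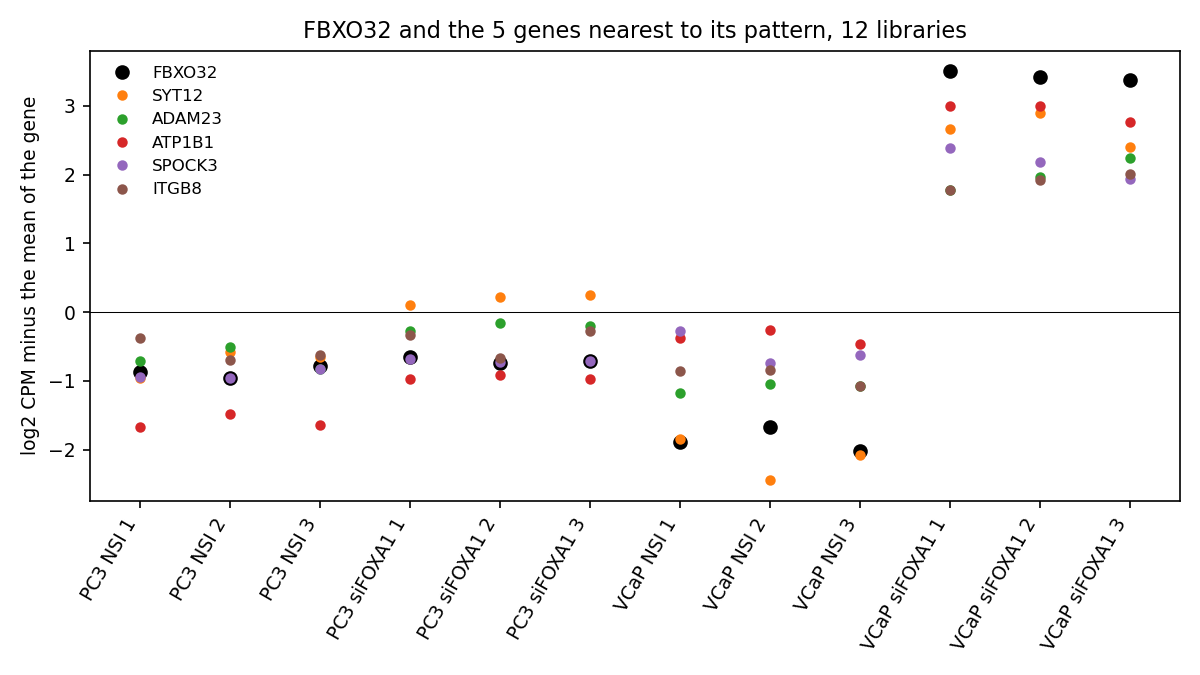
Log2 CPM minus each gene's mean over the 12 libraries (y axis) for FBXO32 (black) and the 5 genes nearest to it, by library (x axis). In all 6 genes the 3 VCaP siFOXA1 libraries stand above the other 9.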

How the data were processed

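Gene-level RNA-seq counts of 12 libraries were used, 3 in each of 4 groups. The values are expected counts that need not be whole, made and deposited by the authors with featureCounts of Subread 2.0.0 after alignment with STAR 2.7.3a, per the submitters' processing notes. The strand setting is per the file headers, and 54.8% to 75.2% of the values above 0 were not whole. Gene lengths come from the same deposited files.

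These counts were rounded to whole numbers. In R 4.3.3, edgeR 4.0.16 (TMM factors, filterByExpr, quasi-likelihood test, two-sided) was fitted once per line, and once over all libraries for the difference between lines. P-values were adjusted by Benjamini and Hochberg across every gene in the fit, with calls at 0.05. A standard error is the size of the log2 fold change divided by the square root of F. CPM used library totals times TMM factors. The steps were tested on simulated data. Other scalings, no filter, DESeq2 1.42.0, a joint fit, a replicate block and leaving out each library were the alternatives.

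The members and lists were chosen with earlier results of these data known. Named genes are the 10 members, FOXA1, the FOXO factors, the members' closest relatives, up to 3 called genes each way per line from the other lists, and the 5 genes nearest FBXO32. CITED2 in PC3, TNFSF10 in VCaP, PHLPP2 and the single cell type markers were named after their values were seen. Some genes that the rule names are not reported here. FBXO32 has no entry among the promoter windows used here.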

Additional observations from a re-analysis of the deposited data

Results flagged for a closer look

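The change with siFOXA1 differed between VCaP and PC3 for 7 of the 9 genes with a test, given here as the VCaP log2 fold change minus that of PC3, and for 3 to 7 of them when 1 library was left out. FBXO32 was chosen for this difference, 5.13, which is not tested. PIK3IP1 was more positive in VCaP by 1.85 (adjusted p 5.77e-05). SESN3 was more negative in VCaP, at −1.93 (adjusted p 1.8e-06), and IRS2 at −1.47 (adjusted p 5.94e-06). KLF6 differed by −0.53 (adjusted p 0.0362), and it rose in PC3. CCNG2 differed by −0.48 (adjusted p 0.0467), TXNIP by −0.46 (adjusted p 0.0187) and SESN1 by −0.34 (adjusted p 0.0342), and each of these 3 fell in VCaP.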

How the results depend on the processing

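In PC3, 7149 genes were called, 11297 with a replicate block, and 3945 to 7592 when 1 library was left out. Called members there numbered 4, and 2 to 5 when 1 library was left out, with 2 both without NSI replicate 3 and without siFOXA1 replicate 1. Members that differed between the lines numbered 7, and 3 to 7 when 1 library was left out. VCaP members numbered 8, and 7 to 8 under every alternative run, with 6 of them lower each time. The INSR change in PC3, −0.02, became 0.01 under upper-quartile factors, 0.04 with library size alone, 0.01 without PC3 NSI replicate 1 and 0.09 without PC3 siFOXA1 replicate 2, with a range of −0.12 to 0.09 over the fits that leave out 1 library. The BCL6 difference between the lines, 0.08, became −0.02 with library size alone and −0.02 without PC3 siFOXA1 replicate 2, with a range of −0.02 to 0.16. The cause was not tested. Same-numbered libraries correlated at 0.151, 0.308 and 0.0948 in PC3 and 0.0639, 0.0364 and 0.279 in VCaP, not all above 0.1, so the numbers were not taken as pairs, although the labels do not say what a number marks, and PC3 replicate 3 and VCaP replicates 1 and 2 correlated better with another number. With the replicate block, PIK3IP1 in PC3 passed (0.41, adjusted p 0.0188), as did FOXO1 in PC3 (0.34, 0.0156) and FOXO4 in PC3 (−0.21, 0.0419) and VCaP (0.27, 0.0445), and no other call of a member changed. FASLG in PC3 and IGFBP1, FOXO6 and TXNRD2 in VCaP rest on under 100 counts in each library.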

Other observations

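Partners of the member proteins were counted in both lines. Of 14 listed partners, all tested, 3 rose and 6 fell in VCaP, where 45.8% of all genes were called. In PC3, where 27.0% of all genes were called, 0 rose and 1 fell, with median log2 fold changes of −0.08 and −0.09. TXNRD1, the cytosolic reductase of the thioredoxin that TXNIP binds, rose in VCaP (339 ± 10.8 against 559 ± 21.3 CPM, ± SD, n = 3 in each group) by 0.72 (SE 0.07, adjusted p 2.8e-05), and was at 0.08 in PC3 (adjusted p 0.544), a tested difference of 0.66 (adjusted p 0.00194). TXNRD2, the mitochondrial reductase, fell in VCaP from 23, 15 and 20 counts to 6, 6 and 5, which is −1.69 on the log2 scale (SE 0.31, adjusted p 0.00162).

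Of the 5 listed subunits of GATOR2, the complex that sestrins bind, 4 were called lower in VCaP and 1 in PC3. Over all genes tested, 23.3% were called lower in VCaP and 12.1% in PC3. The 5 are part of the partner list and were not listed as a set of their own. SEH1L fell in PC3 (31.4 ± 1.20 against 19.6 ± 0.257 CPM, ± SD, n = 3 in each group), at −0.68 on the log2 scale (SE 0.08, adjusted p 0.000572), and in VCaP by 0.28 on the log2 scale (adjusted p 0.00862). WDR24 fell in VCaP by 0.44 on the log2 scale (SE 0.08, adjusted p 0.00172), MIOS by 0.38 (adjusted p 0.00325) and SEC13 by 0.36 (adjusted p 0.000449), while WDR59 was at 0.01 (adjusted p 0.92) there. Among corepressors that BCL6 recruits, NCOR1 rose in VCaP by 0.46 (SE 0.06, adjusted p 0.000252) and BCOR fell by 0.43 on the log2 scale (SE 0.05, adjusted p 0.000147).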
